A study of Mus musculus with 23 samples.

Results

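The 6 follicular helper T cell genes Bcl6, Pou2af1, Ascl2, Cxcr5, Slamf6 and Sh2d1a were chosen by their symbols and were all present among the 21900 genes of the count table. They were followed through 23 RNA-seq libraries of ovalbumin-specific mouse T cells. The OT-I cells used are of the CD8 lineage and the OT-II cells of the CD4 lineage, and each line bears a transgenic T cell receptor that recognises ovalbumin (OVA). The cells were transferred into wild-type C57BL/6 mice, and on day 1 after transfer these animals were given A8B1-OVA (1 ug), OVA in molar-equivalent amount, a higher dose of OVA, or saline. The A8B1-OVA, molar-equivalent OVA and saline groups held 3 libraries per cell type, and so did the higher-dose OVA group of OT-I cells, whereas that of OT-II cells held 2 (replicates 2 and 3). Cells were sorted 5 days after transfer from combined spleens and lymph nodes, and each library pooled 3 mice. The saline mice therefore carried transferred cells as well, and the groups of a cell type are labelled by what the mice were given. The title of the series places antigen on erythrocytes; the sources used here do not say what A8B1 is or which unit the OVA doses have.

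Follicular helper T cells are the CD4 T cells that enter B cell follicles and help B cells in germinal centres. Bcl6, a transcriptional repressor, is the factor required for their formation. It opposes Prdm1 (Blimp-1), which in turn represses Bcl6. The receptor Cxcr5 draws cells towards the chemokine Cxcl13 in follicles, Pou2af1 (OCA-B) is a coactivator of the octamer factors Pou2f1 and Pou2f2, and Ascl2 is a basic helix-loop-helix factor that binds E-boxes and can induce Cxcr5. Slamf6 is a homotypic receptor on T and B cells, and Sh2d1a (SAP) is the adaptor that SLAM family receptors signal through in prolonged T cell to B cell contacts. In CD8 T cells, Cxcr5, Bcl6 and Slamf6 are also known from stem-like and memory precursor cells. B cells too express Bcl6, Pou2af1, Cxcr5 and Slamf6, so B cell RNA in a sorted library bears on the reading of these genes.

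The proximal promoters of Bcl6 and Pou2af1 are shown because these are the members called higher after A8B1-OVA than after higher-dose OVA in OT-II cells (in OT-I cells Pou2af1 alone was). Each runs from 250 bases before to 50 bases after an annotated start, 5′ to 3′ on the coding strand, from RefSeq (GRCm38.p6). RefSeq promoters were held for 4 of the 6 members, those of Slamf6, Ascl2, Pou2af1 and Bcl6. Bcl6 lies on the minus strand of chromosome 16 and has 2 starts in the table, at chr16:23988803-23989102 and chr16:23981234-23981533. Pou2af1 lies on the plus strand at chr9:51213440-51213739. Capitals mark matches on either strand to E-boxes (CANNTG), to TTCNNNGAA (the core that STAT factors bind), to the octamer ATGCAAAT or to TGANTCA (the core that AP-1 binds).
Bcl6 upstream start: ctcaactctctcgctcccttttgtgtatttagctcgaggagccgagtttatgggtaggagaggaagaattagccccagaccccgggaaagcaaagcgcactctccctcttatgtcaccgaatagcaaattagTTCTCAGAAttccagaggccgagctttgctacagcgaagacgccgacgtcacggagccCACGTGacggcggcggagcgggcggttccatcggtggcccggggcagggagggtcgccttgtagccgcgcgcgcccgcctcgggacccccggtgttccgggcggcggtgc
Bcl6 downstream start: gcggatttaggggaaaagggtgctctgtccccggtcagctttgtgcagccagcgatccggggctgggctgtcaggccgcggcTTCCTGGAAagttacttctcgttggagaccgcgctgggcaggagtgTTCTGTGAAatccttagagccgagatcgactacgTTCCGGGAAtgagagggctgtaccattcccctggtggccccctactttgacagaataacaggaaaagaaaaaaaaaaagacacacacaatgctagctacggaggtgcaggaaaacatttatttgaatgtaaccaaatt
Pou2af1: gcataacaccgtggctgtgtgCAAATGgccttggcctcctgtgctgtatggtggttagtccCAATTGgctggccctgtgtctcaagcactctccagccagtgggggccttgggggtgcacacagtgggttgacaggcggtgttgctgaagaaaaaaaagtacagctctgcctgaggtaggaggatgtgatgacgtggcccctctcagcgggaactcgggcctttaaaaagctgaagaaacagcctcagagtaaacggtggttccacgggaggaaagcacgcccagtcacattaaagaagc

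The upstream Bcl6 promoter held 1 TTCNNNGAA match with its first base at −118 from the start and 1 E-box at −60. The downstream one held 3 TTCNNNGAA matches, at −168, −122 and −88, and no E-box. The Pou2af1 promoter held 2 E-boxes, at −229 and −189, and no octamer. No promoter of the 4 genes held ATGCAAAT or TGANTCA. Among 32851 mouse promoters of the same length, 72.3% held an E-box, 8.3% TTCNNNGAA, 7.81% TGANTCA and 1.74% the octamer. These matches describe letters, and no binding was measured.

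Libraries held 26584040 to 73503642 counts, and levels are given in counts-per-million units (CPM) after scaling for composition (TMM). Cd8a averaged 1282 ± 100.1 CPM in OT-I and 1.68 ± 0.52 CPM in OT-II cells after A8B1-OVA, and Cd4 averaged 7.81 ± 7.47 CPM in OT-I and 563 ± 18 CPM in OT-II cells (SD, n = 3 each). In 1 OT-I library of higher-dose OVA, replicate 1, Cd4 reached 163 CPM, against 1.82 and 0.34 CPM in the other libraries of that group. From an earlier analysis of these data, 5 libraries were singled out for raised markers of other cells: OT-I molar-equivalent OVA replicate 2, OT-I saline replicate 1, OT-I higher-dose OVA replicate 1 (for Cd4), OT-II molar-equivalent OVA replicate 3 and OT-II saline replicate 1. Another OT-I library, molar-equivalent OVA replicate 3, had summed B cell markers of 171 CPM, near the 163 and 168 CPM of the saline libraries named, and was not among them. Results are given without the 5 where that ends a call. A fit within a cell type leaves out only those of the 5 that belong to that cell type. Replicates are pools of mice, and since the libraries are bulk samples, more cells with a transcript and more transcript per cell cannot be told apart.

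**Figure D1:**
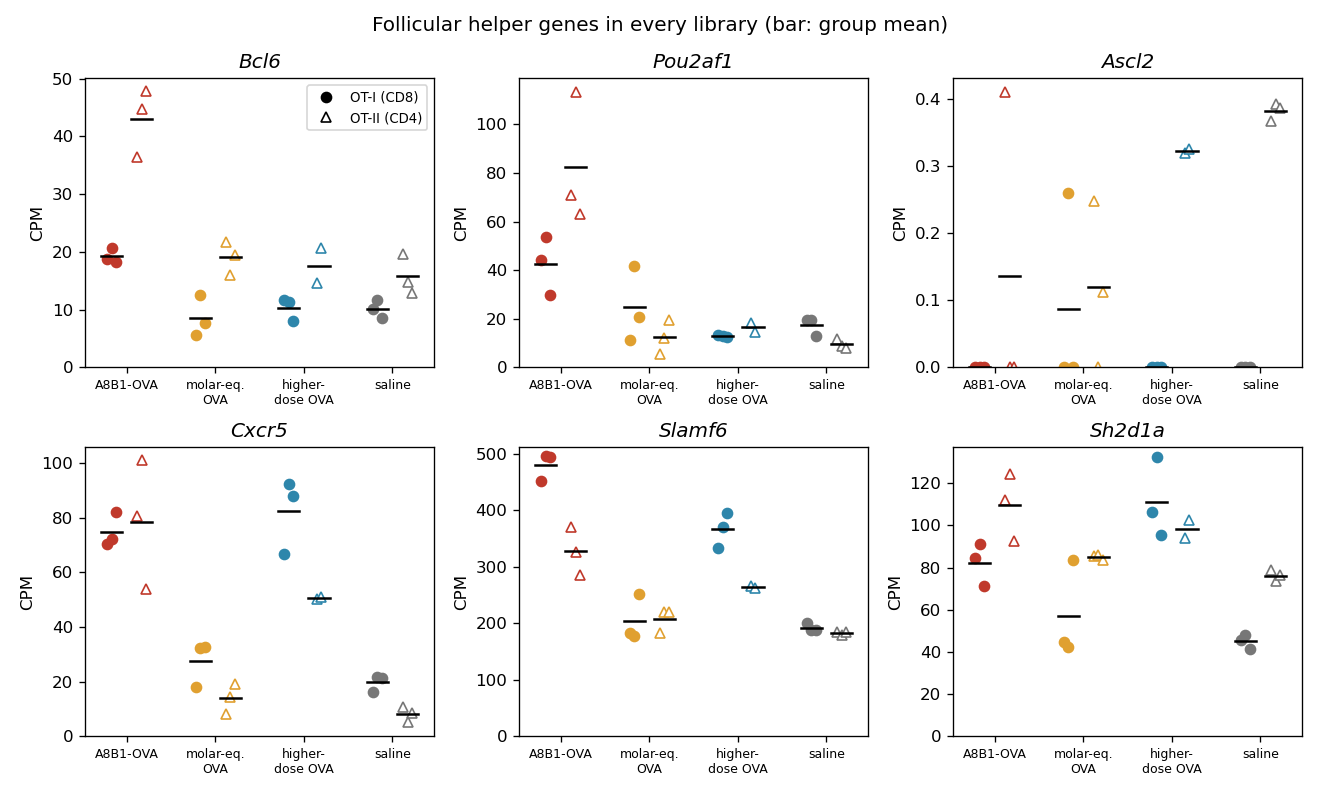
Level of each of the 6 genes in every library, in CPM on axes that start at 0, for A8B1-OVA, molar-equivalent OVA, higher-dose OVA and saline from left to right; filled circles are OT-I and open triangles OT-II libraries, and bars are group means. Bcl6 and Pou2af1 stand highest in OT-II cells after A8B1-OVA, Cxcr5 stands high after A8B1-OVA and after higher-dose OVA alike, and Ascl2 stays under 0.42 CPM.

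After A8B1-OVA, 5 of the 6 genes were higher than after saline in OT-I cells, and the same 5 were higher in OT-II cells. In OT-I cells 7.07% of 14080 genes tested were called higher in that comparison and 4.43% lower; in OT-II cells 4.4% of 14757 genes were called higher and 2.88% lower. The median log2 fold change of the tested members was 1.27 in OT-I cells, where the median over all genes tested was −0.02, and 1.16 in OT-II cells, where it was −0.01. A8B1-OVA and saline libraries did not overlap for those 5 members in either cell type; non-overlap was seen for 32.4% of all genes tested in OT-I and 23.4% in OT-II cells. Ascl2 was the exception in both cell types. Calls use edgeR's quasi-likelihood test with p-values adjusted by Benjamini-Hochberg over all genes of a fit, at 0.05.

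Bcl6 (ENSMUSG00000022508), the repressor at the head of the programme, spans chr16:23965052-23988852 on the minus strand (GRCm38). In OT-II cells it measured 36.4, 44.7 and 47.9 CPM after A8B1-OVA, 21.7, 16.0 and 19.5 CPM after molar-equivalent OVA, 14.7 and 20.6 CPM after higher-dose OVA, and 19.6, 14.8 and 12.9 CPM after saline. All 3 A8B1-OVA libraries lay above all 8 others, which overlapped among themselves. The log2 fold change over saline was 1.46 ± 0.19 (SE; edgeR adjusted p = 0.00107), and that over molar-equivalent OVA was 1.19 ± 0.19 (edgeR adjusted p = 0.0038). In OT-I cells Bcl6 measured 18.8, 20.7 and 18.2 CPM after A8B1-OVA, 5.60, 12.5 and 7.74 CPM after molar-equivalent OVA, 11.7, 11.3 and 8.12 CPM after higher-dose OVA, and 10.1, 11.6 and 8.55 CPM after saline. Again no other OT-I library reached the A8B1-OVA libraries. The log2 fold change in OT-I cells was 0.92 ± 0.26 over saline (edgeR adjusted p = 0.0394) and 1.15 ± 0.27 over molar-equivalent OVA (edgeR adjusted p = 0.0155).

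Pou2af1 (ENSMUSG00000032053), the octamer coactivator, spans chr9:51213708-51240080 on the plus strand. In OT-II cells it measured 71.1, 114 and 63.2 CPM after A8B1-OVA, 5.64, 12.2 and 19.5 CPM after molar-equivalent OVA, 18.3 and 14.6 CPM after higher-dose OVA, and 11.8, 8.80 and 8.01 CPM after saline. The lowest A8B1-OVA library was thus well above the highest of the 8 others. Its log2 fold change over saline was 3.13 ± 0.38 (edgeR adjusted p = 0.00065) and over molar-equivalent OVA 2.74 ± 0.37 (edgeR adjusted p = 0.00133). In OT-I cells it measured 44.3, 53.7 and 29.6 CPM after A8B1-OVA, 11.4, 41.8 and 20.9 CPM after molar-equivalent OVA, 13.5, 12.8 and 12.6 CPM after higher-dose OVA, and 19.7, 19.5 and 13.1 CPM after saline. The A8B1-OVA libraries lay above those of saline and of higher-dose OVA, while 1 library of molar-equivalent OVA lay among them. The log2 fold change was 1.27 ± 0.37 over saline (edgeR adjusted p = 0.04) and 0.78 ± 0.36 over molar-equivalent OVA (edgeR adjusted p = 0.188). That overlapping library, replicate 2, held the highest summed B cell markers of the series (665 CPM); without it the log2 fold change over molar-equivalent OVA was 1.40 (edgeR adjusted p = 0.011).

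Ascl2 (ENSMUSG00000009248; chr7:142966829-142969264, minus strand), the E-box factor, was close to the limit of detection. It had 28, 0 and 0 estimated counts in the OT-II libraries after A8B1-OVA, 14, 0 and 6 after molar-equivalent OVA, 20 and 18 after higher-dose OVA, and 19, 24 and 18 after saline. Only the OT-II saline and higher-dose OVA groups had counts in every library. No OT-II comparison among the treatments passed the test for Ascl2 (edgeR adjusted p = 0.646 for A8B1-OVA over saline). In OT-I cells Ascl2 had 0 counts in 11 of 12 libraries and 7 counts in molar-equivalent OVA replicate 2, and it was not tested there. Set against a limit of 3 counts over the group, OT-I cells were at least 8.19-fold lower than OT-II cells after A8B1-OVA, at least 10.6-fold lower after higher-dose OVA and at least 23.1-fold lower after saline, limits that cover counting error only. All 28 OT-II counts behind the A8B1-OVA limit came from replicate 1, without which both cell types were at 0. Between the cell types the test over libraries was not passed after any of these (edgeR adjusted p = 0.115, 0.144 and 0.0593 in that order).

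Cxcr5 (ENSMUSG00000047880), the follicle-homing receptor, spans chr9:44511787-44561877 on the minus strand. In OT-I cells it measured 70.5, 72.3 and 81.9 CPM after A8B1-OVA, 18.2, 32.5 and 32.6 CPM after molar-equivalent OVA, 66.8, 92.1 and 88.0 CPM after higher-dose OVA, and 16.3, 21.7 and 21.3 CPM after saline. The A8B1-OVA and higher-dose OVA libraries overlapped, and both groups lay above all others. In OT-I cells the log2 fold change was 1.91 ± 0.22 for A8B1-OVA over saline (edgeR adjusted p = 0.000184) and 2.08 ± 0.22 for higher-dose OVA over saline (edgeR adjusted p = 0.00137). In OT-II cells Cxcr5 measured 80.6, 101 and 53.9 CPM after A8B1-OVA, 8.25, 14.4 and 19.0 CPM after molar-equivalent OVA, 50.3 and 50.9 CPM after higher-dose OVA, and 10.9, 5.19 and 8.65 CPM after saline. Its log2 fold changes there were 3.27 ± 0.34 for A8B1-OVA over saline (edgeR adjusted p = 0.000229), 2.51 ± 0.33 for A8B1-OVA over molar-equivalent OVA (edgeR adjusted p = 0.00102) and 2.62 ± 0.35 for higher-dose OVA over saline (edgeR adjusted p = 0.0329). Cxcr5 overlaps Bcl9l on the other strand, with which it shares 2.42% of its 31-base words. Bcl9l averaged 56.6 ± 6.88 CPM after A8B1-OVA and 56.2 ± 12.7 CPM after saline in OT-I cells, and 23.6 ± 5.48 and 32.6 ± 2.82 CPM in OT-II cells in that order (SD, n = 3 each).

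Slamf6 (ENSMUSG00000015314), the homotypic receptor, spans chr1:171917515-171953170 on the plus strand. In OT-I cells it measured 453, 495 and 495 CPM after A8B1-OVA, 183, 177 and 252 CPM after molar-equivalent OVA, 333, 371 and 395 CPM after higher-dose OVA, and 199.96, 189 and 189 CPM after saline. The 3 A8B1-OVA libraries were above every other library, and those of higher-dose OVA came next. In OT-I cells the log2 fold change of A8B1-OVA was 1.31 ± 0.14 over saline (edgeR adjusted p = 0.000132) and 1.23 ± 0.14 over molar-equivalent OVA (edgeR adjusted p = 0.000226). In OT-II cells Slamf6 measured 370.0, 327 and 285 CPM after A8B1-OVA, 184, 219.7 and 221 CPM after molar-equivalent OVA, 266 and 262 CPM after higher-dose OVA, and 185, 179.9 and 185 CPM after saline. Here too the A8B1-OVA libraries were above every other OT-II library. The log2 fold change was 0.85 ± 0.11 over saline (edgeR adjusted p = 0.000888) and 0.66 ± 0.11 over molar-equivalent OVA (edgeR adjusted p = 0.00372).

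Sh2d1a (ENSMUSG00000005696), the SAP adaptor, spans chrX:42502453-42529330 on the plus strand and overlaps Tenm1 on the other strand. It shares 26.1% of its 31-base words with Tenm1, so reads of these genes can be split between them; Tenm1 group means were 1.38 to 2.40 CPM in all 8 groups. In OT-I cells Sh2d1a measured 84.6, 91.1 and 71.2 CPM after A8B1-OVA, 44.8, 42.3 and 83.5 CPM after molar-equivalent OVA, 106, 132 and 95.3 CPM after higher-dose OVA, and 45.7, 48.0 and 41.5 CPM after saline. Every library of higher-dose OVA was above every library of A8B1-OVA. The log2 fold change over saline was 0.86 ± 0.23 for A8B1-OVA (edgeR adjusted p = 0.0273) and 1.33 ± 0.23 for higher-dose OVA (edgeR adjusted p = 0.01). In OT-II cells Sh2d1a measured 112, 124 and 92.7 CPM after A8B1-OVA, 85.6, 86.1 and 83.4 CPM after molar-equivalent OVA, 94.2 and 103 CPM after higher-dose OVA, and 78.7, 73.4 and 76.5 CPM after saline. It was the member with the least difference in OT-II cells among those called, with a log2 fold change of 0.54 ± 0.11 over saline (edgeR adjusted p = 0.0105).

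The OT-II calls over saline held without any 1 of the 6 libraries compared. In OT-I cells Cxcr5 and Slamf6 held likewise, but Bcl6 (log2 fold changes 0.82 to 1.03, adjusted p up to 0.15 by edgeR), Pou2af1 (1.09 to 1.47, up to 0.17) and Sh2d1a (0.80 to 0.95, up to 0.11) missed the threshold without A8B1-OVA replicate 1 or 2 or without any 1 saline library, and held without A8B1-OVA replicate 3. Without the 5 libraries that stood apart, Sh2d1a in OT-I cells had a log2 fold change of 0.87 over saline (edgeR adjusted p = 0.076).

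Against molar-equivalent OVA, 3 of 5 tested members were higher after A8B1-OVA in OT-I cells (Cxcr5, Bcl6 and Slamf6), where 6.56% of all genes were called higher. In OT-II cells 4 of 6 were higher (Cxcr5, Bcl6, Pou2af1 and Slamf6), where 3.94% of all genes were. Cxcr5 in OT-I cells had a log2 fold change of 1.43 ± 0.21 (edgeR adjusted p = 0.00137). Sh2d1a and, in OT-II cells, Ascl2 (edgeR adjusted p = 0.963) were also tested: the log2 fold change was 0.53 ± 0.23 for Sh2d1a in OT-I cells (edgeR adjusted p = 0.154) and 0.38 ± 0.11 for Sh2d1a in OT-II cells (edgeR adjusted p = 0.0571). Single libraries decided some of these: Bcl6 in OT-I cells missed the threshold without A8B1-OVA replicate 2 (1.12, adjusted p = 0.065 by edgeR) or molar-equivalent OVA replicate 3 (1.09, 0.051), and Sh2d1a passed it without OT-I molar-equivalent OVA replicate 3 (0.92, 0.0063) and without OT-II A8B1-OVA replicate 3 (0.48, 0.013).

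Against higher-dose OVA fewer members passed. Bcl6 and Pou2af1 were higher after A8B1-OVA in OT-II cells, with log2 fold changes of 1.30 ± 0.22 (edgeR adjusted p = 0.021) and 2.34 ± 0.43 (edgeR adjusted p = 0.0251), where 0.82% of all genes tested were called higher. Cxcr5 (0.65 ± 0.35), Slamf6 (0.33 ± 0.12) and Sh2d1a (0.17 ± 0.12) did not pass in OT-II cells (edgeR adjusted p = 0.478, 0.271 and 0.614). In OT-I cells Pou2af1 was the member called higher, with 1.68 ± 0.37 (edgeR adjusted p = 0.0395), where 1.63% of all genes were called higher. Bcl6 had a log2 fold change of 0.86 ± 0.26 in OT-I cells (edgeR adjusted p = 0.109) although its groups did not overlap, as was so for 21.1% of all genes. Differences between members were not tested. In OT-I cells A8B1-OVA and higher-dose OVA libraries did not overlap either for Slamf6 or, with higher-dose OVA above, for Sh2d1a. In OT-II cells they did not overlap for Bcl6, Pou2af1, Slamf6 and Cxcr5. The share over all genes is not given for OT-II cells, and the higher-dose OVA group has 2 libraries, so this is not weighed. For the receptors and the adaptor in OT-I cells the values were −0.17 ± 0.21 for Cxcr5, 0.36 ± 0.14 for Slamf6 and −0.47 ± 0.22 for Sh2d1a (edgeR adjusted p = 0.723, 0.179 and 0.282).

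These calls against higher-dose OVA were sensitive to single libraries, and that OT-II group has 2. Bcl6 in OT-II cells missed the threshold without A8B1-OVA replicate 2 (log2 fold change 1.27, adjusted p = 0.064 by edgeR), higher-dose OVA replicate 2 (1.08, 0.24) or higher-dose OVA replicate 3 (1.58, 0.064). Pou2af1 in OT-II cells missed it without A8B1-OVA replicate 1 (2.44, 0.059) or 2 (2.05, 0.069) and without higher-dose OVA replicate 2 (2.52, 0.23) or 3 (2.20, 0.21). In OT-I cells Pou2af1 held only without A8B1-OVA replicate 3, and was between 1.51 and 1.71 (adjusted p 0.094 to 0.20) without any other 1 of the 6 libraries; it was 1.71 (0.064) without the 5 libraries with raised markers. Calls over all genes moved as well: 339 genes were called in either direction in OT-I cells, and 38 (without A8B1-OVA replicate 2) to 1487 (without A8B1-OVA replicate 3) without 1 library and 62 without the 5. In OT-II cells 198 genes were called, and 6 (without higher-dose OVA replicate 2) to 210 (without A8B1-OVA replicate 3) without 1 library.

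**Figure D2:**
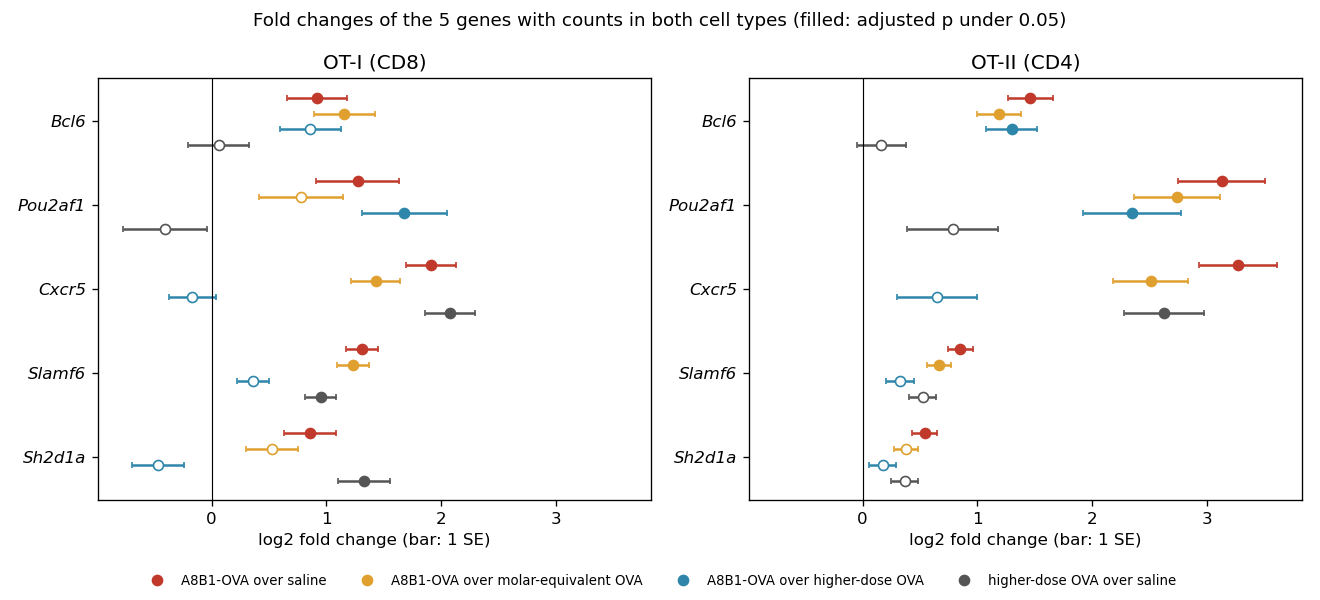
Log2 fold changes of the 5 genes tested within both cell types, with bars of 1 SE, in OT-I cells at left and OT-II cells at right; filled points passed an edgeR adjusted p of 0.05. Bcl6 and Pou2af1 lie to the right of 0 for A8B1-OVA over higher-dose OVA (blue) and near 0 or unfilled for higher-dose OVA over saline (grey), while Cxcr5 is filled for higher-dose OVA over saline in both cell types.

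The free OVA groups were compared with saline as well; they share the saline libraries with the comparisons above. After higher-dose OVA, Cxcr5, Sh2d1a and Slamf6 were higher than after saline in OT-I cells, where 1.97% of all genes were called higher. Slamf6 had a log2 fold change of 0.95 ± 0.14 there (edgeR adjusted p = 0.00501), whereas Bcl6 had 0.06 ± 0.26 and Pou2af1 −0.41 ± 0.37 (edgeR adjusted p = 0.969 and 0.773). In OT-II cells Cxcr5 was 1 of 3 genes, 0.0203% of those tested, that were called higher. Slamf6 (0.52 ± 0.12), Sh2d1a (0.37 ± 0.12), Pou2af1 (0.78 ± 0.39) and Bcl6 (0.16 ± 0.21) did not pass in OT-II cells (edgeR adjusted p = 0.298, 0.635, 0.865 and 0.984). Sh2d1a in OT-I cells missed the threshold without higher-dose OVA replicate 2 (1.17, adjusted p = 0.061 by edgeR) or any 1 saline library (1.27 to 1.37, up to 0.061), and without the 5 libraries with raised markers (1.37, 0.057). Cxcr5 in OT-II cells missed it without higher-dose OVA replicate 2 (2.64, 0.39) or 3 (2.61, 0.23) or saline replicate 2 (2.38, 0.089) or 3 (2.67, 0.12).

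After molar-equivalent OVA no member passed against saline in either cell type, and edgeR called 0 of 14080 genes in OT-I and 0 of 14757 genes in OT-II cells. At an unadjusted p under 0.05, edgeR had 266 genes in OT-I and 577 in OT-II cells, and DESeq2 called 1 and 22 genes after adjustment. The log2 fold changes of the members were between −0.23 (Bcl6) and 0.49 (Pou2af1) in OT-I cells and, Ascl2 apart, between 0.16 (Sh2d1a) and 0.76 (Cxcr5) in OT-II cells.

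The difference between the responses of the cell types to A8B1-OVA over saline was tested as an interaction over all 23 libraries. No member passed, where 0.433% of 15235 genes did. OT-I minus OT-II was −1.83 ± 0.56 for Pou2af1 (edgeR adjusted p = 0.213) and −1.33 ± 0.41 for Cxcr5 (edgeR adjusted p = 0.217) on the log2 scale. It was −0.51 ± 0.33 for Bcl6, 0.48 ± 0.17 for Slamf6 and 0.34 ± 0.27 for Sh2d1a (edgeR adjusted p = 0.719, 0.327 and 0.779). The Pou2af1 difference passed with the summed B cell markers as a covariate in edgeR (−1.85, adjusted p = 0.002) and in DESeq2 (−1.82, adjusted p = 0.049). For higher-dose OVA over saline no member passed either, where 1 gene of 15235 did (0.00656%); OT-I minus OT-II was −1.21 ± 0.59 for Pou2af1 and 0.94 ± 0.29 for Sh2d1a (edgeR adjusted p = 0.98 and 0.526).

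Set side by side after the same treatment, Bcl6 was lower and Slamf6 higher in OT-I than in OT-II cells after A8B1-OVA. In OT-I over OT-II the log2 fold changes were −1.16 ± 0.24 for Bcl6 (edgeR adjusted p = 0.00168) and 0.56 ± 0.12 for Slamf6 (edgeR adjusted p = 0.00326), where 8.34% of all genes were called lower and 12.2% higher. Pou2af1 had −0.96 ± 0.39 (edgeR adjusted p = 0.0908), which passed with the B cell marker covariate (−0.99, 0.0015), with only the groups compared (adjusted p = 0.042) and without the 5 libraries with raised markers (−0.97, 0.038). Cxcr5 averaged 74.9 ± 6.12 CPM in OT-I and 78.5 ± 23.5 CPM in OT-II cells. After saline Cxcr5 was higher in OT-I cells (1.26 ± 0.30, edgeR adjusted p = 0.00511) and Sh2d1a lower (−0.76 ± 0.19, edgeR adjusted p = 0.00842), where 8.36% of all genes were higher and 7.11% lower. Without the 5 libraries with raised markers the Sh2d1a difference was −0.73 (edgeR adjusted p = 0.063). After higher-dose OVA Slamf6 was higher in OT-I cells (0.47 ± 0.14, edgeR adjusted p = 0.0337; 5.52% of all genes). That call was lost without OT-I higher-dose OVA replicate 2 (0.46, adjusted p = 0.11 by edgeR) or 3 (0.42, 0.12) and without OT-II higher-dose OVA replicate 2 (0.49, 0.18) or 3 (0.47, 0.17). Bcl6 had the same sign after saline (−0.65 ± 0.24, edgeR adjusted p = 0.0736) and after higher-dose OVA (−0.77 ± 0.26, edgeR adjusted p = 0.0696). Both Bcl6 values passed with the B cell marker covariate (edgeR adjusted p = 0.043 each) and in DESeq2 (adjusted p = 0.041 each).

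Over the 8 groups, Bcl6 and Pou2af1 were both highest in OT-II cells after A8B1-OVA (43.0 ± 5.94 and 82.6 ± 27.1 CPM; SD, n = 3), with a gap to the OT-I A8B1-OVA group that followed (19.2 ± 1.32 and 42.5 ± 12.1 CPM). For Bcl6, the groups ranked 2 to 5 overlapped their neighbours, and so did those ranked 6 to 8. Slamf6 was highest in OT-I cells after A8B1-OVA (481 ± 24.5 CPM), above OT-I higher-dose OVA (367 ± 31.1 CPM) and OT-II A8B1-OVA (327 ± 42.3 CPM), which overlapped. For Cxcr5 the top 3 groups, OT-I higher-dose OVA (82.3 ± 13.6 CPM), OT-II A8B1-OVA and OT-I A8B1-OVA, overlapped one after the other, and OT-II higher-dose OVA lay below them (50.6 ± 0.40 CPM, n = 2). Sh2d1a ran more narrowly, with 111 ± 19.1 CPM in OT-I cells after higher-dose OVA, the highest, and 45.1 ± 3.33 CPM in OT-I cells after saline, the lowest.

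As a description, patterns over the 8 group means, centred within each cell type, were compared by root mean square difference in log2 units. Among members the most alike were Slamf6 and Sh2d1a (0.24) and Bcl6 and Slamf6 (0.33). Among 9927 other genes with at least 5 CPM in some group, Jdp2 (0.29) and Samd3 (0.31) were nearest to Cxcr5, Nefh (0.10) and Begain (0.12) to Bcl6, Colq (0.31) and Ankrd13b (0.32) to Pou2af1, Gsap (0.11) and Sord (0.12) to Sh2d1a, and Ptpn7 (0.04) and Bcl2l1 (0.06) to Slamf6. Lrrc8a and Trim56 (0.06 each) were nearest to Ascl2, whose own pattern is nearly flat because its counts are so few.

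Prdm1, the antagonist of Bcl6, went the other way in OT-II cells. It measured 4.90, 4.66 and 3.68 CPM after A8B1-OVA, 11.2, 11.7 and 10.7 CPM after molar-equivalent OVA, 14.7 and 7.65 CPM after higher-dose OVA, and 13.6, 14.03 and 14.95 CPM after saline. No OT-II A8B1-OVA library reached the lowest of the others. Its log2 fold change was −1.67 ± 0.23 over saline (edgeR adjusted p = 0.00123), −1.33 ± 0.23 over molar-equivalent OVA (edgeR adjusted p = 0.00523) and −1.32 ± 0.25 over higher-dose OVA (edgeR adjusted p = 0.028). In OT-I cells Prdm1 was low, at 0.91, 0.50 and 0.75 CPM after A8B1-OVA, 1.15, 3.70 and 1.28 CPM after molar-equivalent OVA, 5.83, 8.40 and 3.20 CPM after higher-dose OVA, and 4.56, 1.76 and 1.30 CPM after saline. There the log2 fold change over saline was −1.83 ± 0.58 (edgeR adjusted p = 0.0617), and that over higher-dose OVA was −3.05 ± 0.61 (edgeR adjusted p = 0.0252). Both calls over higher-dose OVA were lost without any of 4 libraries: in OT-I cells A8B1-OVA replicate 1 or 2 or higher-dose OVA replicate 1 or 2 (−3.22 to −2.64, adjusted p up to 0.16 by edgeR), and in OT-II cells any A8B1-OVA library or higher-dose OVA replicate 2 (−1.41 to −0.78, up to 0.34). The OT-II value was also −1.32 (0.054) without the OT-II libraries with raised markers, although neither group compared lost a library there.

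**Figure D3:**
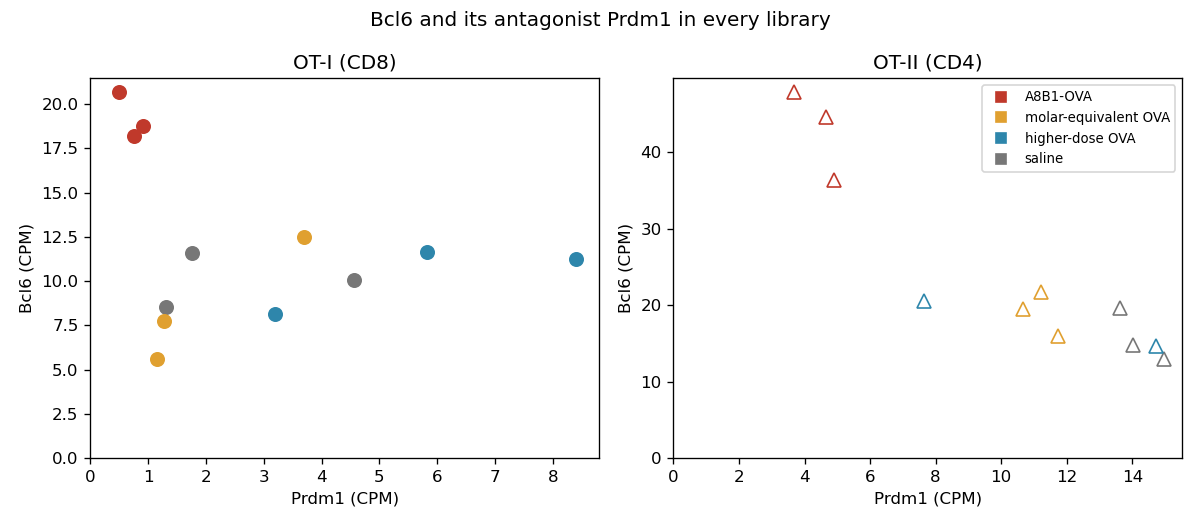
Bcl6 against Prdm1 in every library, both in CPM on axes that start at 0, for OT-I cells at left and OT-II cells at right; each point is 1 library, coloured by treatment. The A8B1-OVA libraries lie at the upper left in both panels, with Bcl6 at 36.4 to 47.9 CPM and Prdm1 at 3.68 to 4.90 CPM in OT-II cells.

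Pou2f2 (Oct2), the octamer factor that Pou2af1 binds, was higher after A8B1-OVA than after saline in both cell types, like Pou2af1. It averaged 28.2 ± 2.77 CPM after A8B1-OVA and 7.74 ± 0.40 CPM after saline in OT-II cells, a log2 fold change of 1.88 ± 0.18 (edgeR adjusted p = 0.00017). In OT-I cells it averaged 56.1 ± 3.69 CPM after A8B1-OVA and 14.9 ± 1.92 CPM after saline, a log2 fold change of 1.90 ± 0.22 (edgeR adjusted p = 0.000206). It was higher than after higher-dose OVA too, by 1.11 ± 0.20 in OT-II cells (edgeR adjusted p = 0.0258) and 1.25 ± 0.22 in OT-I cells (edgeR adjusted p = 0.015). Over higher-dose OVA the OT-II value missed the threshold without A8B1-OVA replicate 1 or 2 or either higher-dose OVA library (0.99 to 1.26, adjusted p up to 0.28 by edgeR), and the OT-I value without A8B1-OVA replicate 1 or 2 or higher-dose OVA replicate 3 (1.19 to 1.32, up to 0.071).

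Other genes of the programme were counted over saline after A8B1-OVA, from lists drawn up with earlier results of these data known. For all these lists, 7.07% of all genes tested were called higher and 4.43% lower in OT-I cells. In OT-II cells 4.4% were called higher and 2.88% lower. The medians over all genes tested were −0.02 and −0.01. Of 13 transcription factors known to promote follicular helper cells, 6 were higher and 1 lower in OT-I cells and 6 higher and 0 lower in OT-II cells (median log2 fold changes 0.22 and 0.53). Besides Pou2f2, Irf4 (1.85 ± 0.19, edgeR adjusted p = 9.23e-05), Id3 (0.94 ± 0.18, 0.00492) and Tox (0.58 ± 0.11, 0.00506) were higher in OT-I cells, and Tox (1.09 ± 0.11, 0.00017), Tcf3 (0.53 ± 0.10, 0.00893) and Batf (0.58 ± 0.13, 0.0176) in OT-II cells. Batf missed the threshold without A8B1-OVA replicate 1 or 2 or saline replicate 2 or 3 (0.47 to 0.56, adjusted p up to 0.068 by edgeR). Lef1, named after its value was seen, was the factor called lower in OT-I cells (−0.39 ± 0.11, edgeR adjusted p = 0.039), a call that held only without A8B1-OVA replicate 3 among the 6 libraries left out in turn (−0.42 to −0.32 and adjusted p up to 0.18 for the others); it was −0.42 (0.10) without the 5 libraries with raised markers.

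Of the surface and cytokine genes of follicular helper cells, 11 were tested in OT-I cells, of which 5 were higher and 2 lower, and 14 in OT-II cells, of which 4 were higher and 2 lower. The median log2 fold changes were 0.46 and −0.09. The inhibitory receptor Pdcd1 (PD-1) averaged 81.7 ± 21.6 CPM after A8B1-OVA and 4.12 ± 0.92 CPM after saline in OT-I cells, and 82.0 ± 13.4 and 18.5 ± 9.44 CPM in OT-II cells in that order (edgeR adjusted p = 8.1e-05 and 0.00117). Cd200, a ligand for an inhibitory receptor on myeloid cells, averaged 100.1 ± 31.6 CPM after A8B1-OVA and 6.01 ± 0.17 CPM after saline in OT-I cells, and 129 ± 48.8 and 21.5 ± 4.31 CPM in OT-II cells (edgeR adjusted p = 5.42e-05 and 0.000471). The costimulator Icos was higher by 0.91 ± 0.13 in OT-I and 0.76 ± 0.11 in OT-II cells (edgeR adjusted p = 0.00059 and 0.00153), and Il6st, the signalling chain of the interleukin 6 receptor, by 0.97 ± 0.15 in OT-II cells (edgeR adjusted p = 0.00202).

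Members of the same list were lower or nearly silent. Il6ra, the ligand-binding chain of that receptor, was lower by −0.96 ± 0.19 in OT-I and −0.75 ± 0.14 in OT-II cells (edgeR adjusted p = 0.00664 and 0.00835). Cd40lg, the ligand through which helper cells activate B cells, was lower in OT-II cells, at 107 ± 19.5 CPM after A8B1-OVA and 191 ± 18.0 CPM after saline (−0.82 ± 0.16, edgeR adjusted p = 0.00948). In OT-I cells Cd40lg averaged 11.8 ± 1.73 CPM after A8B1-OVA and 26.2 ± 3.22 CPM after saline (−1.16 ± 0.47, edgeR adjusted p = 0.134), and it passed with only the groups compared (−1.17, 0.0035) and without the 5 libraries with raised markers (−1.21, 0.0054). Cxcr4 was lower in OT-I cells (−0.84 ± 0.22, edgeR adjusted p = 0.0254), and S1pr2 (0.71 ± 0.19, 0.027) and Btla (0.46 ± 0.14, 0.0468) were higher there. These 4, Il6ra in OT-II cells and Il21 were named after their values were seen. In OT-I cells Cxcr4 missed the threshold without A8B1-OVA replicate 2 or saline replicate 1 or 3 (−0.89 to −0.69, adjusted p up to 0.14 by edgeR), S1pr2 without A8B1-OVA replicate 2 or saline replicate 2 or 3 (0.60 to 0.68, up to 0.11), and Btla without any of the 6 libraries but A8B1-OVA replicate 1 (0.31 to 0.51, up to 0.15). Without the 5 libraries with raised markers Cxcr4 was −0.89 (0.073) and Btla 0.43 (0.18). Il21, the signature cytokine of follicular helper cells, averaged 0.96 ± 0.59 CPM in OT-II cells after A8B1-OVA and 1.20 ± 1.39 CPM after saline (edgeR adjusted p = 0.885); its log2 fold change was −0.30 with all libraries and 1.25 without saline replicate 1.

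**Figure D4:**
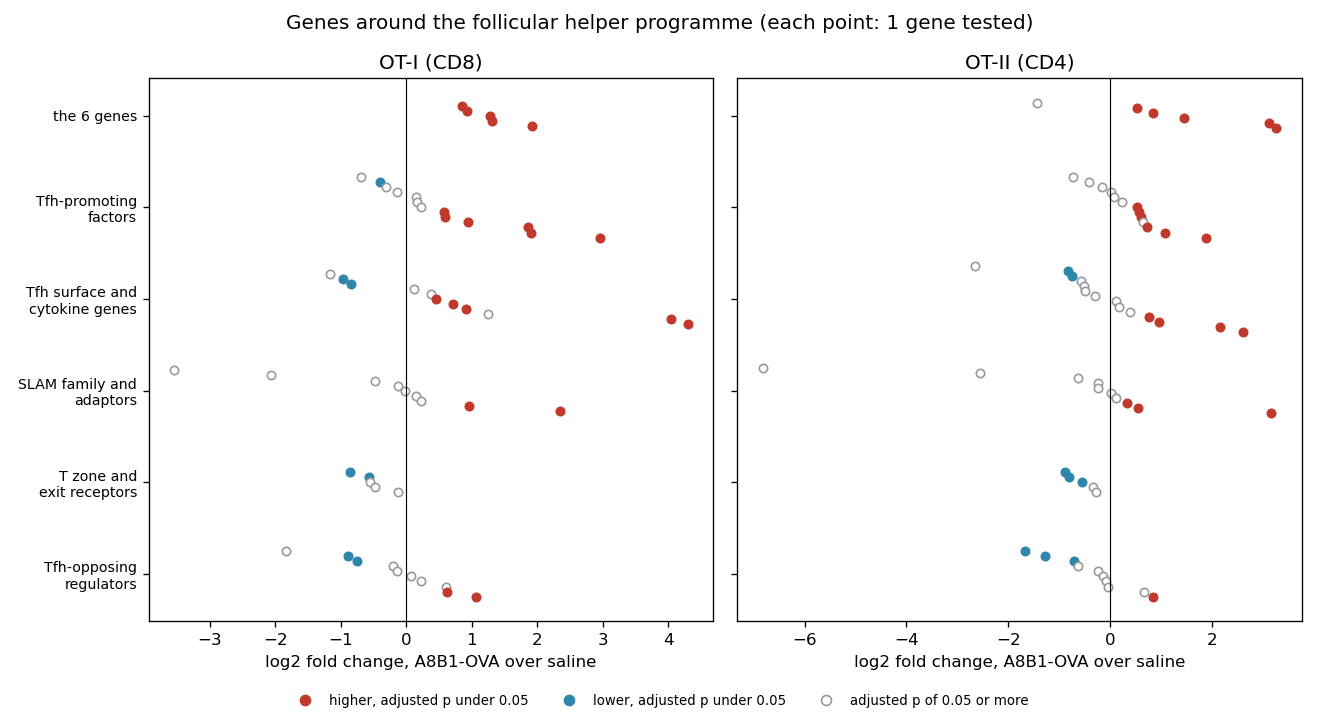
Log2 fold changes of A8B1-OVA over saline for each gene tested in 6 lists, in OT-I cells at left and OT-II cells at right (the horizontal scales differ); red points were called higher, blue lower, and open points did not pass an edgeR adjusted p of 0.05. Of the 6 genes, 5 sit right of 0 in red in each panel (Ascl2 was not tested in OT-I cells), while the T zone and exit receptors that passed sit left of 0.

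Of 10 regulators known to oppose follicular helper cells, 2 were lower and 2 higher in OT-I cells, and 3 lower and 1 higher in OT-II cells. Klf2, which drives S1pr1 expression, was lower in both (−0.75 ± 0.13 in OT-I and −1.27 ± 0.10 in OT-II cells, edgeR adjusted p = 0.00244 and 3.12e-05). Id2, an inhibitor of E proteins, was lower in OT-I cells (−0.88 ± 0.17, edgeR adjusted p = 0.00563), and Runx3, a CD8 lineage factor, in OT-II cells (−0.71 ± 0.10, edgeR adjusted p = 0.00145), next to Prdm1. Stat5a, which transmits interleukin 2 signals, was higher in both (0.62 ± 0.13 and 0.86 ± 0.11, edgeR adjusted p = 0.0105 and 0.000772), and Tbx21 (T-bet) was higher in OT-I cells (1.06 ± 0.31, edgeR adjusted p = 0.0414), a call that was lost without any 1 of the 6 libraries (0.95 to 1.17, up to 0.13). Stat5a in OT-I cells missed the threshold without saline replicate 1 (0.56, edgeR adjusted p = 0.055), and without the 5 libraries with raised markers Stat5a was 0.56 (0.07) and Tbx21 1.00 (0.11).

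Among receptors that hold cells in the T zone or lead them out of the organ, 2 of 5 were lower in OT-I cells (S1pr1, −0.85 ± 0.13, and Gpr183, −0.57 ± 0.12; edgeR adjusted p = 0.00134 and 0.00728) and 3 of 5 in OT-II cells (S1pr1, −0.88 ± 0.11, Selplg, −0.81 ± 0.13, and Ccr7, −0.55 ± 0.10; edgeR adjusted p = 0.000607, 0.00297 and 0.00804). None of the 5 was called higher. Genes of the SLAM family and its adaptors were counted too. Slamf7 was higher in OT-I cells (2.35 ± 0.34, edgeR adjusted p = 0.000835) and OT-II cells (3.16 ± 0.37, 0.000544), as were Slamf1 in OT-I (0.96 ± 0.16, 0.00248) and OT-II cells (0.54 ± 0.11, 0.0111) and the kinase Fyn in OT-II cells (0.33 ± 0.09, 0.0488). Fyn missed the threshold without any of the 6 libraries but A8B1-OVA replicate 3 (0.27 to 0.36, adjusted p up to 0.17 by edgeR), and without the 5 libraries with raised markers Fyn was 0.36 (0.10) and Slamf1 in OT-II cells 0.49 (0.052). They made 2 of 9 tested members of the SLAM list in OT-I cells and 3 of 10 in OT-II cells, and edgeR called none lower; the median of the list was −0.01 in OT-I and −0.10 in OT-II cells.

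Because B cells express several members, 15 B cell markers were measured beside them. None of the 15 passed in A8B1-OVA over saline in either cell type, with median log2 fold changes of −0.60 in OT-I and −0.45 in OT-II cells. Their summed level was 61.2 to 103 CPM in OT-I libraries after A8B1-OVA and 73.1 to 163 CPM after saline, and 47.7 to 88.6 CPM after A8B1-OVA and 62.2 to 168 CPM after saline in OT-II libraries. The sums overlapped, and the lowest values were on the A8B1-OVA side in both cell types. At most 1 of the 15 markers was at 0 in any library; Pax5 was at 0 in OT-I A8B1-OVA replicate 1 and OT-II A8B1-OVA replicate 3, where Pou2af1 measured 44.3 and 63.2 CPM. With the summed markers as a covariate all 10 calls over saline after A8B1-OVA held. Among the molar-equivalent OVA libraries the sums were 59.3, 665 and 171 CPM in OT-I cells, where Pou2af1 measured 11.4, 41.8 and 20.9 CPM, and 56.8, 121 and 229 CPM in OT-II cells, where it measured 5.64, 12.2 and 19.5 CPM; the part of B cell RNA in these levels was not tested. Of 12 myeloid and 3 tested plasma cell markers none passed either; the myeloid sums were 39.6 to 67.2 CPM after A8B1-OVA and 41.5 to 294 CPM after saline in OT-I libraries, and 42.7 to 89.4 CPM and 71.1 to 409 CPM in OT-II libraries in that order. Plasma cell marker sums were 2.97 to 18.1 CPM after A8B1-OVA and 4.79 to 32.8 CPM after saline in OT-I libraries, and 4.64 to 13.9 CPM and 7.15 to 82.0 CPM in OT-II libraries. Of 6 T cell markers Cd8b1 alone passed, lower in OT-II cells after A8B1-OVA (−0.88 ± 0.12, edgeR adjusted p = 0.00141).

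**Figure D5:**
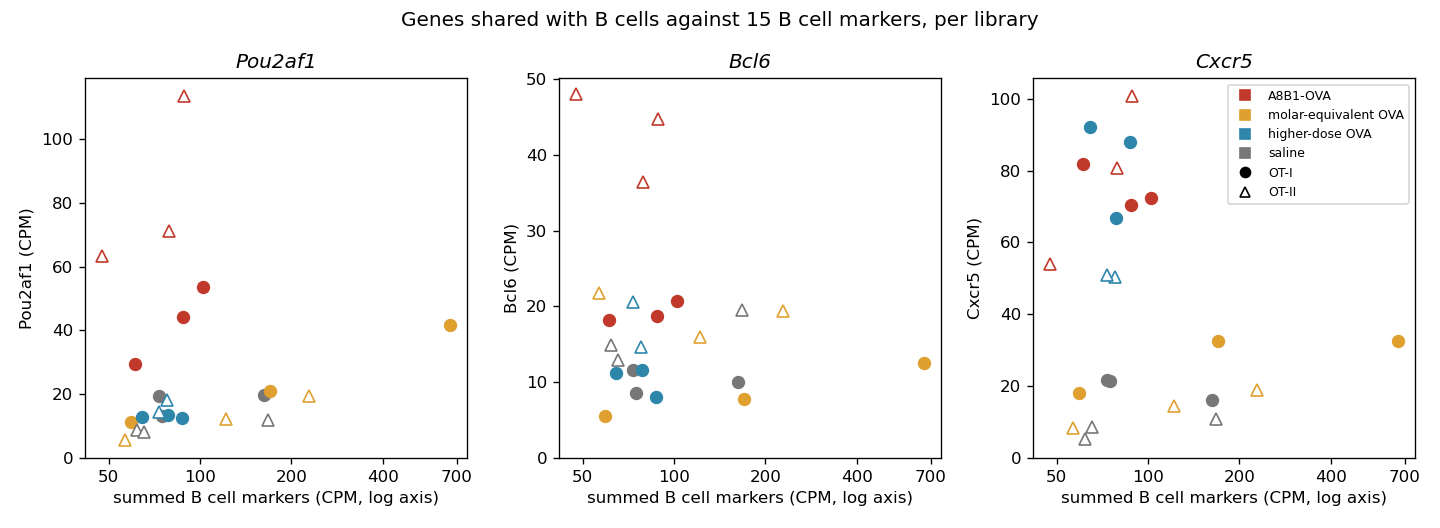
Pou2af1, Bcl6 and Cxcr5 (CPM, axes from 0) against the summed level of 15 B cell markers (CPM, log axis), 1 point per library, coloured by treatment, with filled circles for OT-I and open triangles for OT-II. The A8B1-OVA libraries lie at marker sums of 47.7 to 103 CPM. Among them Bcl6 is high in OT-II cells (36.4 to 47.9 CPM). Its OT-I values (18.2 to 20.7 CPM) fall among OT-II libraries of other treatments. Pou2af1 is highest in OT-II A8B1-OVA libraries, and its OT-I A8B1-OVA values lie on both sides of the library at 665 CPM, which is OT-I molar-equivalent OVA replicate 2.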

How the data were processed

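RNA of sorted OT-I and OT-II cells was measured in 23 libraries of 8 groups, made from polyA RNA by SmartSeq cDNA synthesis per the labels' protocols. Per the submitters' processing notes, reads were handled with bcl2fastq and kallisto 0.46.1 on GRCm38; the estimated counts per gene that the authors deposited are whole numbers. The strand setting is not given in the sources used here, so overlapping genes cannot be told apart by strand. One label writes OT-i for samples whose titles and source name OT-II CD4 cells; they were grouped as OT-II. All sample columns were used. Nothing says which mice a replicate number shares, so p-values measure the spread between pooled libraries.

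Counts were filtered (edgeR filterByExpr, at least 10 counts, 15 in total), scaled by TMM and tested with edgeR 4.0.16 (R 4.3.3; quasi-likelihood test, Benjamini-Hochberg at 0.05), in separate fits of 12 OT-I libraries (14080 genes) and 11 OT-II libraries (14757 genes) and in a joint fit of 23 (15235 genes) for comparisons of the cell types, 15 comparisons in all. SE is the absolute log2 fold change divided by the square root of F. CPM used each library's total (26584040 to 73503642 counts) times its TMM factor. The test was checked on simulated counts. Alternatives were DESeq2 1.42.0, RLE size factors, no low-count filter, a replicate block, a B cell marker covariate, only the groups compared, and leaving libraries out. The members and all gene lists were chosen with earlier results of these data known. Named in the text are the members, up to 4 called genes per list and cell type with the lowest adjusted p in A8B1-OVA over saline, the 2 genes most like each member (log2 of mean CPM plus 0.5), and others marked as chosen after their values were seen. The result of 1 gene list is not reported here.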

Additional observations from a re-analysis of the deposited data

How the results depend on the processing

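The members gave 29 calls. Under alternatives that keep the libraries, or that drop the 5 with raised markers, 203 of 203 values of these calls kept their direction and 194 their side of the threshold; without 1 library at a time 129 of 170 did. For the other named genes, 364 of 364 values kept direction and 335 of 364 the threshold, and 255 of 309 without 1 library. The number of members called in A8B1-OVA over higher-dose OVA in OT-I cells was 1, and 2 with DESeq2 or the B cell marker covariate and 0 without the raised-marker libraries. In OT-I over OT-II it was 1 after higher-dose OVA and 2 with the covariate, DESeq2, only the groups compared or without those libraries; after saline it was 2, and 4 with the covariate and 1 without those libraries. In the interaction for A8B1-OVA over saline it was 0, and 1 with the covariate or DESeq2. In OT-II higher-dose OVA over saline it was 1, and 2 with DESeq2 and 0 with only the groups compared. Without 1 library, members called were 0 to 1 (OT-I A8B1-OVA over higher-dose OVA), 2 to 5 (OT-I A8B1-OVA over saline), 0 to 1 (OT-I over OT-II after higher-dose OVA), 0 to 2 (OT-II A8B1-OVA over higher-dose OVA) and 0 to 1 (OT-II higher-dose OVA over saline). With the replicate number as a block, members called were 0 in OT-II A8B1-OVA over higher-dose OVA (Bcl6 1.27, Pou2af1 2.46, edgeR adjusted p = 0.052 each) and 0 in OT-II higher-dose OVA over saline. The block is a check only: same-numbered libraries correlated at −0.312 to 0.128 (OT-I cells) and −0.14 to 0.062 (OT-II cells), and across cell types at −0.026 to 0.281 (median 0.128, other numbers −0.018), where 15 of 23 matched their own number best. That is a hint from the data, which the labels do not explain. Since not every pair was above 0.1, the numbers were not taken to pair samples. The block groups libraries by number over all treatments, so it does not check pairs of OT-I and OT-II libraries of the same treatment. Comparisons of the cell types were not fitted with such pairs. Values that changed sign, none of them called, were Ascl2 in OT-II cells under the block (−0.64 over molar-equivalent OVA after A8B1-OVA, 0.24 for higher-dose OVA over saline), Bcl6 in OT-I higher-dose OVA over saline without raised-marker libraries (−0.03), and Pou2af1 in molar-equivalent OVA over saline with the covariate (−0.19 in OT-I, −0.05 in OT-II) or without those libraries in OT-I cells (−0.02). Il21 in OT-II A8B1-OVA over saline was 0.20 under the block and 1.25 without raised-marker libraries, and −0.93 to 1.25 without 1 library, where S1pr2 ranged over −0.09 to 0.24. Without 1 library, uncalled members ranged across 0 in Ascl2 (OT-II A8B1-OVA over molar-equivalent OVA, −5.80 to 1.26), Bcl6 (OT-I higher-dose OVA over saline, −0.04 to 0.21; OT-II, −0.11 to 0.39; the interaction for higher-dose OVA, −0.32 to 0.15; OT-I molar-equivalent OVA over saline, −0.61 to 0.00), Cxcr5 (OT-I over OT-II after A8B1-OVA, −0.29 to 0.15), Pou2af1 (molar-equivalent OVA over saline, OT-I cells −0.12 to 0.84, OT-II cells −0.10 to 0.74), and Sh2d1a and Slamf6 (OT-I molar-equivalent OVA over saline, −0.05 to 0.50 and −0.10 to 0.17). List counts moved by over 1.5 times in A8B1-OVA over saline: promoting factors higher in OT-II cells, 6 and 3 with only the groups compared; T zone receptors lower in OT-I cells, 2 and 4 with DESeq2; opposing regulators higher in OT-I cells, 2 and 0 without raised-marker libraries; SLAM genes higher in OT-II cells, 3 and 1 without them. Genes called over the whole table moved too: A8B1-OVA over saline had 1620 in OT-I cells (674 to 2569 without 1 library, 977 without raised-marker libraries) and 1074 in OT-II cells (578 to 1011, 1892 with DESeq2); over molar-equivalent OVA 1496 (575 to 2181, 2457 with DESeq2, 575 with only the groups compared) and 939 (441 to 968, 1713 with DESeq2); over higher-dose OVA 339 (1202 with DESeq2, 210 with only the groups compared) and 198 (706 with DESeq2, 44 under the block, 122 without raised-marker libraries, 90 with only the groups compared); higher-dose OVA over saline 339 (73 to 303, 712 with DESeq2) and 4 (0 to 4, 90 with DESeq2). In OT-I over OT-II after saline 2356 genes were called, 2519 with the covariate and 1583 without raised-marker libraries. After higher-dose OVA that comparison had 1534, 1692 with the covariate, 2177 with DESeq2, 1506 with only the groups compared and 1792 without those libraries. The interaction for A8B1-OVA over saline had 66, 90 with the covariate and 253 with DESeq2. The cause of these changes was not tested. Depth limits Ascl2 and Il21; the OT-II higher-dose OVA group has 2 libraries.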
